A study of Caenorhabditis elegans with 6 samples.

Results

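The genes described here make, break down and read cyclic GMP (cGMP) in the nematode Caenorhabditis elegans. They were taken by gene symbol: every protein-coding gene named gcy, cng or pde with a number, plus odr-1, daf-11, tax-2, tax-4, egl-4 and che-6. This gave 47 of the 46589 genes in the count table. By product they are 27 receptor guanylyl cyclases, 7 soluble guanylyl cyclases, 6 subunits of cGMP-gated channels, 6 cyclic nucleotide phosphodiesterases and 1 cGMP-dependent protein kinase.

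Guanylyl cyclases turn GTP into cGMP. The receptor type spans the membrane, and most of its worm members are made in a few head neurons, where they sense salt, temperature, odours, pheromone or carbon dioxide. The soluble type carries haem and is used in the neurons that sense oxygen. cGMP opens cation channels such as TAX-2/TAX-4, which depolarises the neuron, and it activates the kinase EGL-4, which works in olfactory adaptation, egg laying and body size. Phosphodiesterases end the signal.

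RNA was sequenced from whole wild-type animals of strain Bristol N2, harvested as adults 5 days past the L4 larval stage, with 3 libraries labelled control and 3 labelled bcat-1 RNAi, called RNAi-labelled here because the target gene did not bear out the label. RNA interference was delivered by feeding Escherichia coli that express double-stranded RNA of bcat-1, the branched-chain amino acid transferase. All 6 libraries therefore share the genotype, the age and, by the methods of the study, the HT115 bacteria on which RNAi was fed. Neurons of N2 are known to respond poorly to feeding RNAi, and each library pools many animals. What the controls were fed is labelled only as control.

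The libraries held 32784443 to 44137496 counted reads. Levels are given throughout as CPM, counts per 1e6 counted reads after TMM scaling, which sets libraries to a common level by a trimmed mean of log ratios. On that scale bcat-1 stood at 135, 135 and 162 CPM in the controls against 223, 102 and 287 CPM in the RNAi-labelled libraries (log2 fold change 0.50, standard error 0.30, adjusted p = 0.169 by the quasi-likelihood test of edgeR with Benjamini-Hochberg adjustment). It was not called lower, so each direction below is that of RNAi-labelled over control-labelled libraries. The study itself reports, from quantitative PCR after a shorter treatment, that feeding this RNAi abolished bcat-1 expression. RNAi replicate 3 stood apart from the others of its group (chi-square per degree of freedom 48.2 and 63.0, against 13.8 between RNAi replicates 1 and 2). Control replicate 1 held 162 CPM of larval moult transcripts, against 76.7 and 76.2 CPM in the other control libraries. Values without either of these libraries are given where leaving it out changes a call or moves a fold by over 1.5 times. Those without both together are given for some genes.

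Most genes of the cGMP route were higher in the RNAi-labelled libraries. Of the 40 members with enough reads to be tested, 31 rose, 3 fell (egl-4, pde-2 and pde-3) and 6 were not called (edgeR's quasi-likelihood test, Benjamini-Hochberg adjusted p under 0.05 over 16391 genes). The comparison was wide, since 61.6% of all tested genes were called, 36% higher and 25.6% lower. Libraries scaled by size alone gave 7332 genes higher and 1947 lower in place of 5907 and 4189, and upper quartile scaling gave 6614 and 2932. The median log2 fold change of the tested members was 1.41, against 0.145 over all tested genes. Another scaling moved both medians together, to 1.29 and 0.02 with DESeq2's size factors and to 1.66 and 0.40 with library size alone. The medians lay closer together in other fits, at 1.40 and 0.548 with no filter and 1.31 and 0.457 in DESeq2. They were 0.862 and 0.375 in limma on log2(RPKM + 0.1) and only 0.351 and 0.241 on log2(RPKM + 1). At least 2-fold higher were 25 members, where 24.3% of all tested genes were so called. No member fell by 2-fold. Without control replicate 1 and RNAi replicate 3 together, 26 members were called higher and 2 lower.

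These counts have to be read with the filter and with the level of the genes. A tested gene needed 0.243 CPM, or 10 reads in a library of median size, in 3 libraries. All 40 tested members passed it in the 3 RNAi libraries, but only 26 passed it in the 3 controls, 5 in 1 or 2 controls and 9 in none. Those 9 could enter only by being higher in the RNAi-labelled libraries, so the count is a description of the members and no support for a shift. With no filter, 35 of the 47 members were called higher and 3 lower, against 22.6% and 15.4% of all genes with a read. The ranges of both groups were apart for 42 members, 37 of them higher and 5 lower. Among all genes with a read, 31.4% had groups that did not overlap with the RNAi group higher.

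Genes of low level rose more often throughout the transcriptome. Of tested genes with a mean under 1 CPM, 54.2% were called higher and 3.27% lower, and of the 18 tested members in that range 16 rose. Between 1 and 10 CPM the shares were 50.8% and 10.2%, and 11 of 13 members rose. At 10 CPM and over the shares turned to 19.1% higher and 44.7% lower, and of 9 members 4 rose and 3 fell. The median log2 fold change of members in these ranges was 1.69, 1.53 and 0.24, against 0.98, 0.57 and −0.23 for all tested genes of the same range. The member medians lay above those of other genes in each range, a difference that was not tested.

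**Figure D1:**
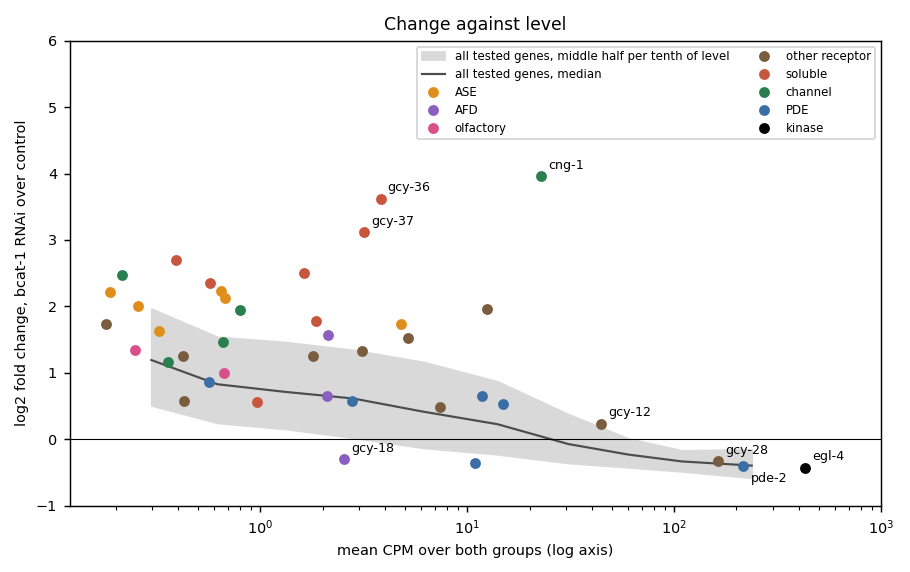
Log2 fold change (bcat-1 RNAi over control) of the 40 tested members against their mean CPM over both groups on a log axis, coloured by role. The grey line and band are the median and interquartile range of all tested genes in equal bins of level. The 3 called falls lie at or above 10 CPM, and cng-1, gcy-36 and gcy-37 stand far above the band.

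Levels of different genes can be compared only per length of transcript, in the authors' RPKM (read counts divided by exon length in kilobases and by library total in units of 1e6). In the controls the order was led by egl-4 at a mean of 116 RPKM (range 111 to 120), pde-2 at 69.7 RPKM (69.1 to 70.3) and gcy-28 at 29.5 RPKM (28.2 to 31.1). Next came gcy-12 at 7.38 RPKM (6.97 to 7.94), and these ranges do not overlap. The following members, pde-3, pde-4 and pde-6, lay at 3.35, 3.22 and 3.08 RPKM with ranges that overlap. At the other end were gcy-1, gcy-2 and gcy-3, at or under 0.008 RPKM. In the RNAi-labelled libraries the first 3 kept their order, while cng-1 went from the 10th place (0.980 RPKM) to the 4th (18.1 RPKM). Also by RPKM, gcy-36 moved from the 22nd to the 9th place and gcy-37 from the 21st to the 11th. The kinase alone took 47.3% to 48.3% of all reads on members in the controls and 38.9% to 40.2% in the RNAi-labelled libraries.

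**Figure D2:**
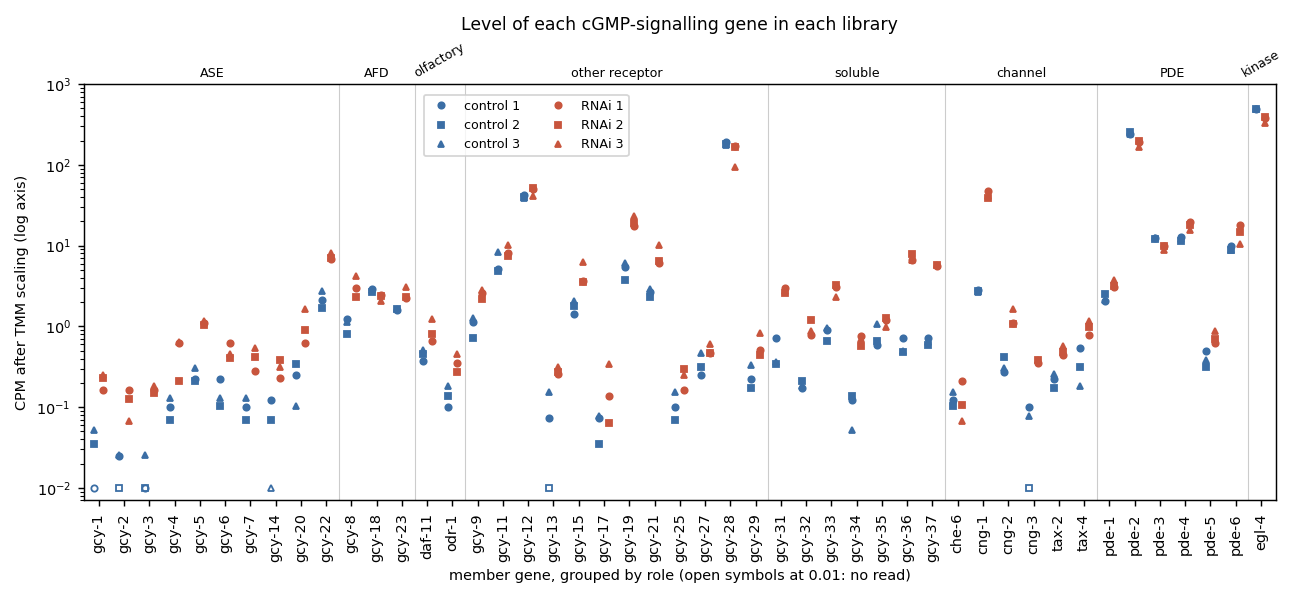
CPM after TMM scaling of each of the 47 members in each library (log axis), with control libraries in blue and RNAi-labelled libraries in red; open symbols at 0.01 mark libraries with no read. Members are grouped by role; the red symbols sit above the blue ones for 37 members and below them for 5.

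The ASE neurons are a pair of salt-sensing cells whose left member (ASEL) and right member (ASER) make different receptor cyclases. All 10 ASE cyclases were higher in every RNAi-labelled library than in any control, though 4 of them were too scarce for the main test. The 6 tested ones rose (median log2 fold change 2.07), and with no filter all 10 were called higher. Among all genes with a read, 22.6% were called higher with no filter, and 31.4% had the RNAi group higher without overlap. All tested ASE cyclases but gcy-22 had a mean under 1 CPM, where 54.2% of all tested genes were called higher. In every control gcy-6, gcy-7 and gcy-14 were under the filter level, so they could enter only by being higher in the RNAi-labelled libraries. In bulk RNA, a change in the share of a cell type and a change in RNA per cell cannot be told apart.

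In the right-hand set, gcy-22, the ASER cyclase needed for responses to amino acids and several ions, had the most reads. Its level was 2.13, 1.70 and 2.76 CPM in the controls and 6.81, 7.10 and 8.21 CPM in the RNAi-labelled libraries (log2 1.74, standard error 0.20, edgeR adjusted p = 1.26e-04). The groups were well apart, and the rise was 1.58 to 1.92 on the log2 scale when any one library was left out. Some 6.09% of the exon bases of gcy-22 overlap the same-strand gene T03D8.6, which rose too (log2 2.07). The ASER marker gcy-5 stood at 0.223, 0.208 and 0.309 CPM in the controls and at 1.09, 1.04 and 1.18 CPM in the other group (log2 2.13, standard error 0.27, edgeR adjusted p = 1.92e-04). The control values of gcy-5 rest on 6 to 12 reads and the others on 47 to 52. Some 13.6% of the exon bases of gcy-5 overlap the protein-coding genes idpp-8 and srlf-34 on the other strand.

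The neighbouring genes gcy-3, gcy-2 and gcy-1 lie head to tail on the minus strand of chromosome II, from 9502757 to 9516936 in WBcel235, with gaps of 320 and 394 bases. They were nearly silent in the controls. Reads in control replicates 1 to 3 numbered 0, 1 and 2 for gcy-1, against 7, 11 and 11 in RNAi replicates 1 to 3. For gcy-2 they were 1, 0 and 1 against 7, 6 and 3, and for gcy-3 they were 0, 0 and 1 against 7, 7 and 8. Only uniquely mapped reads were counted, so reads shared by such tandem copies are lost and their levels are uncertain. Another ASER cyclase, gcy-4, next but one to gcy-5 on chromosome II, had 4, 2 and 5 reads in the controls and 27, 10 and 28 in the RNAi-labelled libraries.

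In the left-hand set, gcy-6 rose from 0.223, 0.104 and 0.129 CPM to 0.627, 0.402 and 0.453 CPM (log2 1.64, standard error 0.37, edgeR adjusted p = 0.00492). For gcy-7, the values were 0.0991, 0.0693 and 0.129 CPM in the controls and 0.279, 0.423 and 0.544 CPM in the other group (log2 2.00, standard error 0.42, edgeR adjusted p = 0.00314). The sodium and alkaline pH sensor gcy-14 had only 5, 2 and 0 reads in the controls and 10, 18 and 14 in the RNAi-labelled libraries (log2 2.21, standard error 0.62, edgeR adjusted p = 0.0125). The gcy-14 value was 3.24 without control replicate 1, 1.59 without control replicate 3 and 3.27 without control replicate 1 and RNAi replicate 3 together, and its call was lost in limma on log2(RPKM + 1). For gcy-20, also made in ASEL, the controls had 0.248, 0.347 and 0.103 CPM and the RNAi-labelled libraries 0.627, 0.909 and 1.66 CPM (log2 2.23, standard error 0.49, edgeR adjusted p = 0.0039). Both sets moved upward, and the ratio of summed ASER reads to summed ASEL reads was 3.57, 3.41 and 9.14 in the controls and 5.11, 4.19 and 3.54 in the RNAi-labelled libraries, with overlapping groups (exact permutation test, two-sided, p = 0.9).

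The AFD neurons sense temperature with 3 receptor cyclases, gcy-8, gcy-18 and gcy-23, of which gcy-8 and gcy-23 rose and gcy-18 was not called. The gcy-8 gene (C49H3.1, chromosome IV, 7928152 to 7933782, plus strand) stood at 1.24, 0.797 and 1.13 CPM in the controls and 2.97, 2.30 and 4.26 CPM in the RNAi-labelled libraries (log2 1.57, standard error 0.28, edgeR adjusted p = 0.0014). For gcy-23 the values were 1.59, 1.66 and 1.65 CPM against 2.28, 2.32 and 3.06 CPM (log2 0.65, standard error 0.20, edgeR adjusted p = 0.018). The third, gcy-18, had 2.87, 2.67 and 2.86 CPM against 2.42, 2.37 and 2.04 CPM, which is lower in each of the 3 libraries but was not called (log2 −0.30, standard error 0.17, edgeR adjusted p = 0.151). The gcy-23 call was lost in DESeq2 (adjusted p = 0.127), without control replicate 1 (log2 0.61, edgeR adjusted p = 0.0555) and without control replicate 1 and RNAi replicate 3 together (log2 0.50).

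Within a library, ratios of reads between genes do not depend on scaling. Reads of gcy-8 per read of gcy-18 were 0.431, 0.299 and 0.396 in the controls and 1.23, 0.973 and 2.09 in the RNAi-labelled libraries. Every RNAi library thus had more than any control, a log2 difference of 1.87 between the group means. The exact permutation p was 0.1, the smallest that 3 libraries against 3 allow, and 0.144 after Benjamini-Hochberg adjustment over the 13 ratios computed. These ratios were chosen after the values were seen. In the controls gcy-18 had the most reads of the 3 AFD cyclases in each library. Among the RNAi-labelled libraries it lay between gcy-8 and gcy-23 in replicate 1, had 112 reads against 110 for gcy-23 and 109 for gcy-8 in replicate 2, and had the fewest in replicate 3, at 90 reads against 135 and 188. Of other genes of the AFD neuron, the homeobox gene ttx-1 rose (log2 0.86), ntc-1, the worm relative of vasopressin and oxytocin, was not called, and nhr-38 was below the filter.

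The receptor cyclases daf-11 and odr-1 act with TAX-2/TAX-4 in odour and pheromone responses, and daf-11 is named for its role in dauer formation. Both were higher in the RNAi-labelled libraries, and both are scarce. For daf-11 the controls had 0.372, 0.450 and 0.515 CPM and the other group 0.650, 0.803 and 1.22 CPM (log2 1.0, standard error 0.31, edgeR adjusted p = 0.0206). For odr-1 they had 4, 4 and 7 reads, or 0.0991, 0.139 and 0.180 CPM, against 15, 13 and 20 reads, or 0.348, 0.275 and 0.453 CPM (log2 1.35, standard error 0.38, edgeR adjusted p = 0.0132). The groups did not overlap for either gene. In every control odr-1 was under the filter level, so it could enter only by being higher in the RNAi-labelled libraries. Both calls were lost in DESeq2 and without control replicate 1 (log2 0.86 for daf-11 and 1.11 for odr-1, edgeR adjusted p = 0.0756 and 0.0631). The daf-11 call was also lost without control replicate 2 (log2 0.99) or RNAi replicate 3 (log2 0.73), and without control replicate 1 and RNAi replicate 3 together the values were 0.61 and 0.95.

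Of the other 12 receptor cyclases 10 were tested, and 6 rose, none fell (edgeR; none at an unadjusted p under 0.05, and none in DESeq2) and 4 were not called. Over all tested genes 36% were called higher and 25.6% lower. By level, 54.2% were called higher under 1 CPM, 50.8% between 1 and 10 CPM and 19.1% at 10 CPM and over. The cyclases of this set that rose are mostly markers of single sensory neuron classes. Carbon dioxide is sensed in the BAG neurons through gcy-9, which went from 1.14, 0.728 and 1.29 CPM to 2.60, 2.18 and 2.86 CPM (log2 1.25, standard error 0.24, edgeR adjusted p = 0.00214). The inner labial neuron gene gcy-19 went from 5.40, 3.78 and 6.05 CPM to 17.3, 18.8 and 23.6 CPM (log2 1.96, standard error 0.20, edgeR adjusted p = 5.95e-05). In the ASG chemosensory neurons gcy-15 and gcy-21 are used, and they rose by 1.32 and 1.53 on the log2 scale. Smaller rises in reads carried gcy-13 and gcy-29 past the threshold (log2 1.74 and 1.25), and DESeq2 called neither. Without control replicate 1 they stood at 1.65 and 1.16 and were not called (edgeR adjusted p = 0.078 and 0.058). Neither was called without control replicate 1 and RNAi replicate 3 together (log2 1.585 and 0.87). The gcy-13 call was also lost without RNAi replicate 2 (log2 1.73) or 3 (log2 1.66), with a log2 value of 2.62 without control replicate 3, and that of gcy-29 without control replicate 2 (log2 1.08). The gcy-13 gene had 3, 0 and 6 reads in the controls and 11, 13 and 14 in the RNAi-labelled libraries. It was under the filter level in every control, so it could enter only by being higher in the RNAi-labelled libraries.

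Not called in this set were gcy-11, gcy-12, gcy-27 and gcy-28. The most abundant of all cyclases, gcy-28, which works in odour preference learning and is also made outside sensory neurons, had 189, 182 and 176 CPM in the controls and 173, 166 and 94.6 CPM in the RNAi-labelled libraries (log2 −0.33, standard error 0.20, edgeR adjusted p = 0.165). One library, RNAi replicate 3, set that value, and without it the log2 difference was −0.08. For gcy-12, which acts with egl-4 in body size, the controls had 42.9, 39.9 and 38.9 CPM and the other group 50.9, 51.7 and 40.6 CPM (log2 0.24, standard error 0.12, edgeR adjusted p = 0.106). Without RNAi replicate 3 this gene was called higher (log2 0.36, edgeR adjusted p = 0.00541), as it was with upper quartile scaling (log2 0.37), with library size alone (log2 0.48) and in both RPKM fits. Leaving out control replicate 1 and RNAi replicate 3 together gave the same call for gcy-12 (log2 0.41). Neither gcy-11 (log2 0.49, edgeR adjusted p = 0.0835) nor gcy-27 (log2 0.58, edgeR adjusted p = 0.135) was called. Without control replicate 3 gcy-11 was called higher (log2 0.77, edgeR adjusted p = 0.00693), as it was with library size alone (log2 0.74) and in both RPKM fits. Reads of gcy-17 numbered 3, 1 and 3 against 6, 3 and 15 and those of gcy-25 numbered 4, 2 and 6 against 7, 14 and 11, too few for the test.

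The soluble cyclases gave the highest median of any role with more than 1 member, 2.50 on the log2 scale, with 6 of 7 called higher. All 7 had a mean under 10 CPM. Of all tested genes, 54.2% under 1 CPM and 50.8% between 1 and 10 CPM were called higher. In every control gcy-32 and gcy-34 were under the filter level, so they could enter only by being higher in the RNAi-labelled libraries. In the body-cavity neurons URX, AQR and PQR, GCY-35 and GCY-36 form an oxygen sensor that drives avoidance of high oxygen. The gcy-36 gene (C46E1.2, chromosome X, 15479017 to 15485711, plus strand) stood at 0.718, 0.485 and 0.489 CPM in the controls and at 6.64, 7.86 and 6.67 CPM in the RNAi-labelled libraries. Its mean went from 0.564 ± 0.134 to 7.06 ± 0.697 CPM (SD, n = 3, log2 3.62, standard error 0.22, edgeR adjusted p = 4.80e-06), and leaving out any one library gave 3.5 to 3.83. Its partner gcy-35 had 0.595, 0.658 and 1.08 CPM against 1.21, 1.27 and 0.975 CPM, groups that overlap (log2 0.55, standard error 0.28, edgeR adjusted p = 0.107). Without control replicate 3, gcy-35 was called higher (log2 0.87, edgeR adjusted p = 0.024), as it was with library size alone and in both RPKM fits. Reads of gcy-36 per read of gcy-35 were 1.21, 0.737 and 0.452 in the controls and 5.50, 6.20 and 6.84 in the RNAi-labelled libraries, with no overlap (log2 difference 3.06, exact permutation p = 0.1, adjusted 0.144).

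Of the same neurons, gcy-37 had 0.718, 0.589 and 0.644 CPM in the controls and 5.65, 5.68 and 5.76 CPM in the RNAi-labelled libraries (log2 3.12, standard error 0.18, edgeR adjusted p = 4.73e-06). These values varied little within either group. The gcy-34 gene rose from 0.124, 0.139 and 0.0515 CPM to 0.767, 0.571 and 0.703 CPM (log2 2.70, standard error 0.37, edgeR adjusted p = 3.56e-04), and gcy-32 rose by 2.36 on the log2 scale. In the BAG neurons gcy-31 and gcy-33 serve the response to falling oxygen. The first went from 0.718, 0.347 and 0.361 CPM to 2.95, 2.58 and 2.77 CPM (log2 2.50, standard error 0.28, edgeR adjusted p = 1.10e-04). The second went from 0.892, 0.658 and 0.953 CPM to 3.04, 3.30 and 2.34 CPM (log2 1.78, standard error 0.23, edgeR adjusted p = 2.49e-04). Both groups were apart for both genes, and the BAG cyclase gcy-9 moved the same way.

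**Figure D3:**
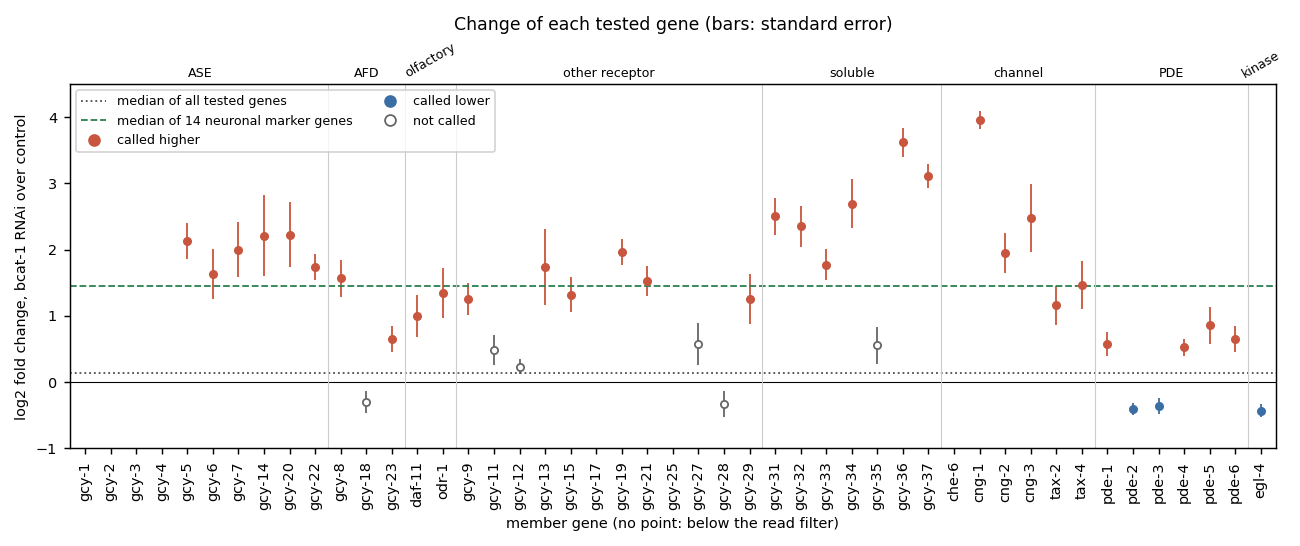
Log2 fold change of each tested member with its standard error (bars), grouped by role; red marks genes called higher, blue genes called lower and open grey symbols genes not called. The dotted line is the median of all tested genes (0.145) and the dashed line the median of 14 neuronal marker genes (1.45). The soluble cyclases and channel subunits reach 3.62 and 3.96, while the phosphodiesterases lie between −0.40 and 0.86.

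Among the tested members, a channel subunit had the largest change. The gene cng-1 (F14H8.6, chromosome V, 15025731 to 15031473, minus strand) encodes a subunit of the cyclic nucleotide-gated channel family. It had 80 to 113 reads in the controls and 2051, 1851 and 1836 reads in the RNAi-labelled libraries, or 2.80, 2.77 and 2.68 CPM against 47.6, 39.1 and 41.6 CPM. The mean went from 2.75 ± 0.0631 to 42.8 ± 4.38 CPM (SD, n = 3), 15.6-fold higher, with a log2 fold change of 3.96 and a standard error of 0.13 (edgeR adjusted p = 8.50e-07). Each library of one group lay far from each of the other, and leaving out any one library gave 3.86 to 4.0. Some 9.72% of the exon bases of cng-1 overlap F14H8.8 on the other strand, which had 0 reads in each control and 25, 17 and 12 in the RNAi-labelled libraries.

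The classical sensory channel is made of TAX-4, the pore-forming subunit, and TAX-2. For tax-4 the controls had 0.545, 0.312 and 0.180 CPM and the other group 0.790, 0.972 and 1.16 CPM (log2 1.47, standard error 0.37, edgeR adjusted p = 0.0075). For tax-2 the controls had 0.223, 0.173 and 0.258 CPM and the other group 0.441, 0.486 and 0.567 CPM (log2 1.16, standard error 0.30, edgeR adjusted p = 0.00846), a call that DESeq2 did not make (adjusted p = 0.123). Both genes were higher in all 3 RNAi libraries, and their ratio did not part the groups (exact permutation p = 0.8). Of the remaining subunits, cng-2 had 0.272, 0.416 and 0.309 CPM against 1.09, 1.06 and 1.66 CPM (log2 1.95, standard error 0.30, edgeR adjusted p = 6.72e-04). The scarce cng-3 had 4, 0 and 3 reads in the controls and 15, 18 and 17 in the RNAi-labelled libraries (log2 2.48, standard error 0.52, edgeR adjusted p = 0.00311). Both tax-2 and cng-3 were under the filter level in every control, so they could enter only by being higher in the RNAi-labelled libraries. The 6th subunit gene, che-6, had 5, 3 and 6 reads against 9, 5 and 3, with overlapping groups and no test.

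Relative to tax-4 and cng-2, cng-1 had more reads in every RNAi-labelled library than in any control. Reads of cng-1 per read of tax-4 were 5.14, 8.89 and 14.9 in the controls and 60.3, 40.2 and 36 in the RNAi-labelled libraries (log2 difference 2.34, exact permutation p = 0.1, adjusted 0.144). Per read of cng-2 they were 10.3, 6.67 and 8.67 against 43.6, 37 and 25.2 (log2 difference 2.03, exact permutation p = 0.1, adjusted 0.144). Of the 13 ratios, 9 had groups that did not overlap, among them the ratios gcy-5 to gcy-22 and pde-4 to pde-2. In the opposite direction, reads of gcy-37 per read of gcy-36 were lower, at 1, 1.21 and 1.32 in the controls and 0.85, 0.723 and 0.864 in the RNAi-labelled libraries.

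**Figure D4:**
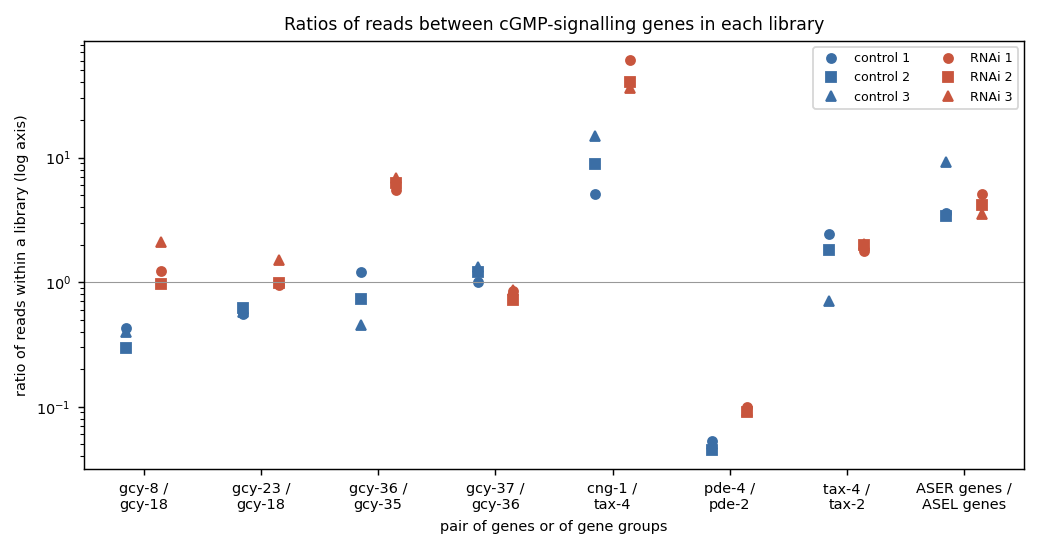
Ratios of reads between pairs of members in each library (log axis), control libraries in blue and RNAi-labelled libraries in red. The groups are apart for gcy-8 to gcy-18, gcy-36 to gcy-35 and cng-1 to tax-4, and they overlap for tax-4 to tax-2 and for ASER to ASEL cyclases.

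The phosphodiesterases moved little and in both directions. The most abundant, pde-2, fell from 239.7, 256 and 242.5 CPM to 194, 195 and 168.5 CPM (log2 −0.40, standard error 0.09, edgeR adjusted p = 0.00535). For pde-3, 12.3, 11.9 and 12.4 CPM in the controls stood against 9.90, 9.87 and 8.77 CPM (log2 −0.36, standard error 0.12, edgeR adjusted p = 0.0297). Neither group overlapped the other, but with library size alone neither gene was called, and the pde-3 call was lost in 11 of 15 alternatives, among them leaving out any one library but control replicate 2 (log2 −0.41 to −0.28). The cAMP-degrading enzyme gene pde-4 rose from 12.8, 11.5 and 12.2 CPM to 19.4, 17.8 and 15.5 CPM (log2 0.53, standard error 0.13, edgeR adjusted p = 0.00666). For pde-6 the values were 10.03, 8.77 and 8.71 CPM against 18.2, 14.7 and 10.5 CPM (log2 0.66, standard error 0.20, edgeR adjusted p = 0.0164). Again the groups did not overlap. For pde-1 they were 2.06, 2.50 and 2.14 CPM against 3.11, 3.13 and 3.72 CPM (log2 0.58, standard error 0.18, edgeR adjusted p = 0.0198), and for pde-5 they were 0.495, 0.312 and 0.386 CPM against 0.627, 0.697 and 0.884 CPM (log2 0.86, standard error 0.28, edgeR adjusted p = 0.0246). DESeq2 called none of these 4 rises, though it called 24 members higher in all. The pde-1 call was lost without control replicate 1 (log2 0.51) and without control replicate 1 and RNAi replicate 3 together (log2 0.46). The pde-4 call was lost without RNAi replicate 1 (log2 0.43). That of pde-5 was lost without control replicate 2 or 3 (log2 0.72 and 0.81) or RNAi replicate 2 or 3 (log2 0.87 and 0.73), and that of pde-6 without control replicate 2 (log2 0.61), RNAi replicate 1 (log2 0.45) or RNAi replicate 2 (log2 0.63). Reads of pde-4 per read of pde-2 were 0.0535, 0.0450 and 0.0501 in the controls and 0.10, 0.0913 and 0.0919 in the RNAi-labelled libraries (log2 difference 0.93, exact permutation p = 0.1, adjusted 0.144).

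The kinase gene egl-4 (F55A8.2, chromosome IV, 1848071 to 1880596, plus strand) fell. Its level was 488, 491 and 498 CPM in the controls and 381.5, 387.5 and 328 CPM in the RNAi-labelled libraries, or 492 ± 5.04 against 366 ± 32.6 CPM (SD, n = 3). All RNAi libraries lay under all controls, a log2 fold change of −0.43 with a standard error of 0.10 (edgeR adjusted p = 0.00549). The direction held under every scaling tried, but with library size alone the log2 difference was −0.18 and the call was lost (adjusted p = 0.0548). Of all tested genes at 10 CPM and over, 44.7% were called lower.

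Summed over each role, channel subunits went from 3.83 ± 0.208 to 46.0 ± 4.23 CPM (12-fold, carried by cng-1), soluble cyclases from 3.59 ± 0.451 to 21.2 ± 1.2 CPM (5.90-fold) and ASE cyclases from 3.14 ± 0.530 to 11.7 ± 1.51 CPM (3.74-fold; SD, n = 3). All 34 cyclases together had 253 ± 7.87 and 279.5 ± 38.4 CPM, with overlapping groups, since gcy-12 and gcy-28 hold most of that sum, and the other 32 cyclases went from 30.3 ± 5.09 to 87.2 ± 11.2 CPM. In contrast, phosphodiesterases went from 282 ± 7.75 to 232 ± 20.7 CPM. That fall was carried by pde-2 (mean 246 to 186 CPM), while 4 of the 6 phosphodiesterase genes were called higher in edgeR. DESeq2 made none of these 4 calls, and over all tested genes edgeR called 36% higher and 25.6% lower. All 47 members together went from 1031 ± 1.29 to 923 ± 91.9 CPM, lower in each RNAi-labelled library than in any control, with egl-4 as the largest part. These sums were given no test.

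Most tested genes listed as partners of the route or as identity factors of sensory neurons were higher. Both lists were chosen with earlier results of these data known. Their counts are thus a description and no support for a shift. The list of partners, with G proteins, trafficking factors, calcium-dependent enzymes and receptors of these neurons, had 36 tested genes of 40, of which 25 rose and none fell, with a median log2 fold change of 0.85. The ciliary transition zone genes nphp-1 and nphp-4 rose by 3.29 and 3.14 on the log2 scale, pdl-1, a carrier of lipid-modified proteins, by 3.28 and the TRPV channel gene osm-9 by 2.91. Of 21 tested transcription factors that set the identity of sensory neurons, 15 rose and none fell (median 0.93), with unc-86 at 4.87, lim-4 at 3.60 and fkh-8 at 3.37 on the log2 scale. Over both lists, edgeR's quasi-likelihood test called 40 of 57 tested genes higher and none lower, and 1 was lower at an unadjusted p under 0.05. Over all tested genes 36% were called higher and 25.6% lower. Without control replicate 1 the log2 fold change of unc-86 was 5.48 and that of nphp-1 was 3.91. DESeq2 called odr-4, which helps odorant receptors reach the cilium, lower, as did edgeR without control replicate 1. Not called were, among others, the second cGMP-dependent kinase gene pkg-2 (log2 0.16) and daf-25, which carries receptor cyclases to the cilium (log2 0.04). The factor of ASE identity, che-1, had 0, 0 and 3 reads against 0, 1 and 1.

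Markers of several tissues moved between the groups beside these genes. For scale, 36% of all tested genes were called higher and 25.6% lower, and 44.7% were called lower at 10 CPM and over. Neuronal markers were higher for 13 of 14 genes (median log2 fold change 1.45). Their summed level was 400 to 428 CPM in the controls and 631 to 695 CPM in the RNAi-labelled libraries. Markers of ciliated sensory neurons rose for 8 of 8 genes (median log2 fold change 2.87), and their sum went from 8.18 to 11.2 CPM up to 49.9 to 62.3 CPM. Epidermal and larval moult markers rose for 8 of 8, from 76.2 to 162 CPM up to 700 to 900 CPM. Germ-line markers fell for 10 of 10, from 8406 to 10250 CPM down to 3973 to 5188 CPM. Intestinal markers gave 2 rises and 3 falls among 8, muscle markers 1 rise and 4 falls among 8, and of 2 tested sperm markers 1 rose. No marker list was at 0 in any library, although the sperm gene msp-19 had 0 reads in each control. The part of these markers' changes in the rises of the cGMP genes was not tested.

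**Figure D5:**
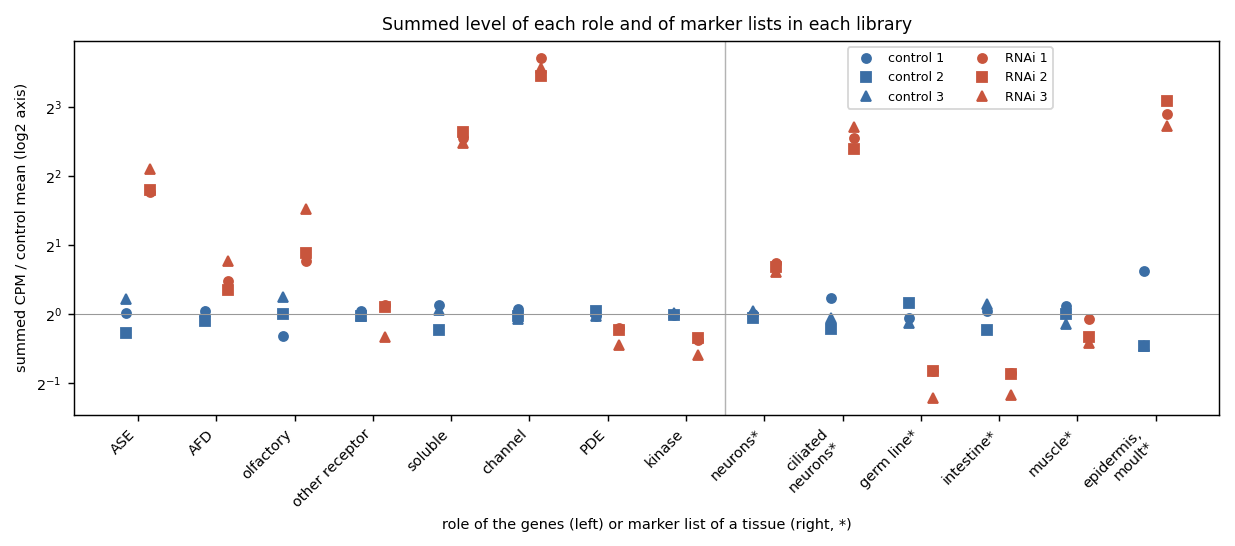
Summed CPM of each role (left) and of tissue marker lists (right, starred) in each library, divided by the control mean and drawn on a log2 axis; blue symbols are controls and red symbols RNAi-labelled libraries. Channel subunits, soluble cyclases, ciliated neuron markers and moult markers lie above their controls in all 3 libraries, while germ-line markers, phosphodiesterases and the kinase lie below.

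The members are spread over all 6 chromosomes, with 12 on II, 11 on V, 10 on IV, 7 on I, 5 on X and 2 on III. Apart from the tandem gcy-3, gcy-2 and gcy-1 and the pair gcy-4 and gcy-5, the only close neighbours were pde-1 and gcy-35, which lie 6513 bases apart on opposite strands of chromosome I. Their log2 fold changes were 0.58 and 0.55. Among the libraries, RNAi replicate 3 was the highest of its group for 27 members and control replicate 2 the lowest of its group for 26.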

How the data were processed

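Total RNA of whole worms was made into TruSeq libraries, a kit that does not record strand, and sequenced as single reads of 50 bases. According to the submitters' processing notes and the study's methods, the authors mapped reads with TopHat2 2.0.6 to WBcel235 and counted unique reads per gene with featureCounts, for which neither a version nor the use of strand is stated; the notes also name CASAVA. The authors deposited raw read counts and RPKM values made from those counts, exon lengths and library totals. No column belonged to another series.

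Counts were filtered (filterByExpr), scaled by TMM and compared between groups by the two-sided quasi-likelihood test of edgeR (version 4.0.16, R 4.3.3), with no covariate and Benjamini-Hochberg adjustment over 16391 genes. Standard errors are the size of the log2 fold change divided by the square root of F. DESeq2 1.42.0 and limma 3.58.1 on log2(RPKM + 1) and log2(RPKM + 0.1) were alternatives, as were other scalings, other filters and leaving libraries out. The test was tried on simulated data beforehand. Gene positions came from Ensembl release 115. Replicates were numbered in accession order, only as names, and the labels do not say that libraries came from separate cultures, so p-values cover the spread of these libraries alone, and that spread may be technical. Library pairs of a group differed beyond sampling noise.

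Members and lists were chosen with earlier results of these data known. Named in full were tax-2, tax-4, egl-4, the phosphodiesterase genes, daf-11, odr-1, AFD and main ASE cyclases, gcy-9, gcy-12, gcy-28, most soluble cyclases and the 5 largest changes in each direction; others were given by range or because they were not called. Genes named outside this rule, such as gcy-15, gcy-19, gcy-20, gcy-21, gcy-32, cng-2, cng-3, T03D8.6, F14H8.8 and che-1, were chosen after their values were seen.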

Additional observations from a re-analysis of the deposited data

How the results depend on the processing

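No value of a tested member changed direction. Of 585 values of single members under the alternatives, 514 kept the call, 56 lost it and 15 gained it, and 20 of the 31 rises were called under every alternative that gave a value, while none of the 3 falls was. Members called higher numbered 18 with a filter of 1 CPM in 3 libraries, where only 25 were tested, and 24 in DESeq2. Members called lower numbered 0 with library size alone, 1 in limma on log2(RPKM + 1) and 0 on log2(RPKM + 0.1). Leaving out one library gave 27 to 34 members higher and 2 to 3 lower. All genes called lower numbered 1947, 1934 and 1918 with library size alone and in the 2 limma fits. Of the outside lists, 1 gene, odr-4, was called lower with DESeq2's size factors and in DESeq2. It was also called lower without control replicate 1, alone or together with RNAi replicate 3. Leaving out any other single library gave 0 such genes. No paired analysis was made, because the labels give no replicate number shared between the groups. Control and RNAi-labelled samples alternate in the running numbers of their titles, but no pairs are named. Depth limits the scarce members: 14 had under 100 reads in all libraries together.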
